A study of Mus musculus with 38 samples.

Results

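HSF1 binding was compared between mitotic (M) and asynchronous (A) JM8 cells, which are mouse embryonic stem cells, at all 1726 HSF1 sites in the deposited score table, out of 18948 sites scored for HSF1, HSF2 and SOX2 together. Every site was kept, because every one carried a value above 0 in both phases, and each was described by log2 M/A, the log2 of its mitotic signal over its asynchronous signal. The signal came from CUT&Tag, in which the Tn5 transposase is brought by an antibody to the protein of interest and cuts the DNA beside it. Wild type JM8 cells growing asynchronously were untreated, and mitotic cells came from the same line after 6 h in 50 ng/ml nocodazole, which blocks the spindle, followed by shake-off. Each phase had 2 libraries, and the table holds 1 averaged value per site and phase, so no difference below has a replicate error or a test. The 95% intervals given run over sites and describe the averaged tracks only. The antibody is given as an ENZO product in the sample labels and as a product of another supplier in the methods, and these sources were not reconciled. The site table holds no HSF1 knockout and no IgG value, so background at a site was not subtracted here. The paper states that a preference of the Tn5 fusion for open chromatin could not be fully excluded, and this was not tested here. Cell identity was not checked against marker genes, since binding signal measures no expression.

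HSF1 is the main transcription factor of the heat shock response. Under proteotoxic stress it forms trimers and binds heat shock elements, arrays of GAA units in alternating orientation, upstream of genes for chaperones. These are HSP70, HSP90, the HSP40 cochaperones that feed them and the chaperonins that fold newly made proteins. The cells here were not heat shocked, so the sites are those with signal in the absence of heat stress. In mitosis chromosomes condense and transcription largely stops, and the question of the comparison is how much of each factor's signal remains at its sites.

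The table covered sites of very unequal strength. Asynchronous signal ran from 0.0769 to 277 with a median of 6.21, and mitotic signal from 0.131 to 141 with a median of 4.07. The median of log2 M/A was -0.62 (95% interval -0.64 to -0.59), and 305 sites (17.7%) were at -1 or lower, that is, at 50% of the asynchronous signal or less. Separately, 140 sites (8.11%) were higher in mitosis and 1586 (91.9%) were lower. These shares are the background for every group of sites below. In bulk signal, fewer cells bound at a site and less HSF1 bound per cell cannot be told apart. The paper reports that a small share of cells in the mitotic fraction were not mitotic, and M includes their signal.

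**Figure D1:**
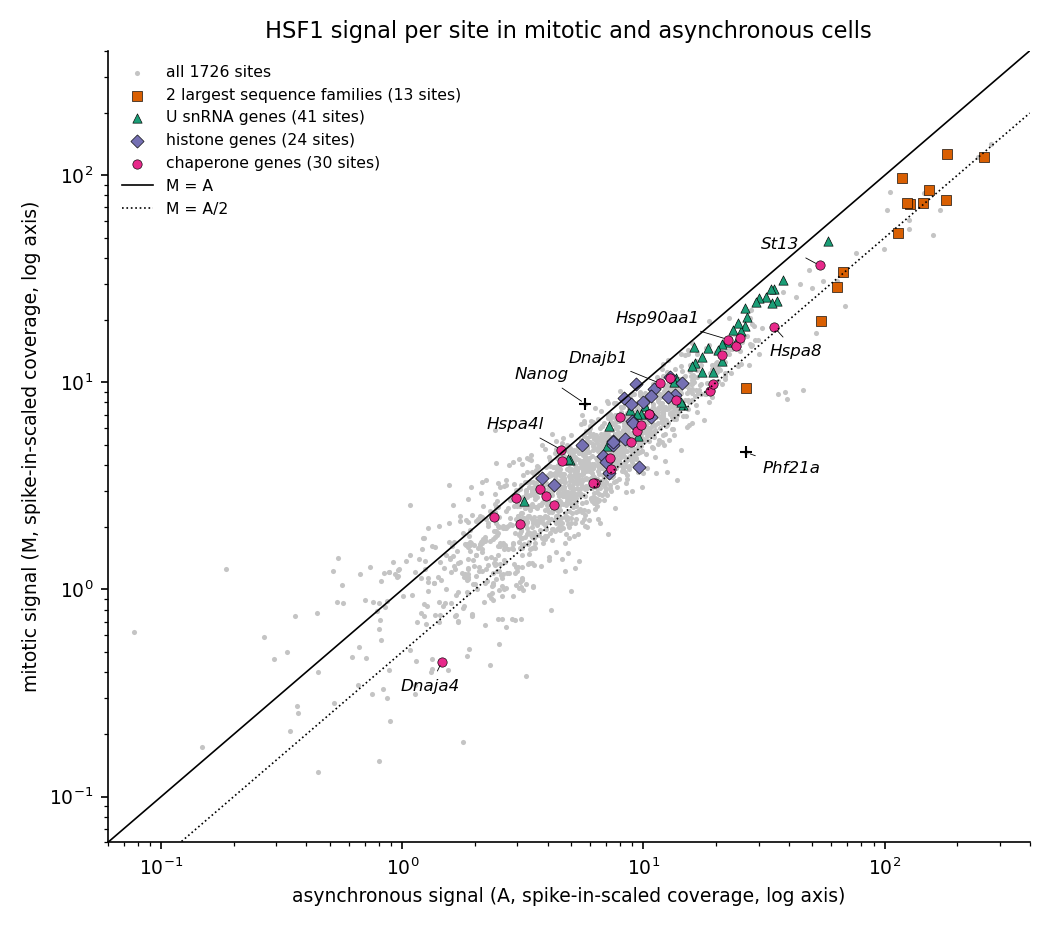
Mitotic against asynchronous HSF1 signal, in spike-in-scaled coverage on log axes, for 1726 sites (grey), with sites at U snRNA, histone and chaperone genes and in 2 sequence families marked. Most points lie between equality (solid line) and M at 50% of A (dotted line), the sequence families lie at the upper right near the dotted line, and the U snRNA sites run above it.

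The order of sites was largely the same in both phases. Spearman's rho between A and M was 0.922 across sites, which share libraries and are no replicates. Of the 20 strongest sites in asynchronous cells 19 were among the 20 strongest in mitosis, and 82 of the first 100 were among the first 100. The site that entered the mitotic 20 lay at the start of Alyref2, a gene for an mRNA export adaptor, with A of 58.3 and M of 48.2. The site that left was the widest of the 20, chr16:17219514-17222519 (10.9 kb from Rimbp3), with A of 99.7 and M of 44.2.

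The strongest HSF1 signal was not at heat shock genes. The 20 strongest asynchronous sites, with A of 99.7 to 277, held 18.7% of the sum of A over all sites. A is a mean over each site, and this sum was not weighted by width. The median width was 600.5 bp for the 20 sites and 1938.5 bp for all sites. None of the 20 lay within 1 kb of a protein-coding transcript start, where 48.1% of all sites lay. Of the 20, 18 lay more than 5 kb from one, and 19 were narrower than 1 kb. None held a heat shock element of 3 units, searched as GAANNTTCNNGAA on both strands. Of all sites 15.9% held one, as did 5.20% in the strongest of 10 equal groups by the mean of A and M. All 20 sites were lower in mitosis, with a median log2 M/A of -0.97. Of these 20, 8 (40%) were at -1 or lower against 17.7% of all sites. At the strongest, chr7:130834086-130834651 (31.1 kb from Plekha1), A was 277 and M 141. At the third, chr17:36231189-36231851 (26.0 kb from Rpp21), A was 244 and M 122. The deepest reduction among the 20 was at chr1:102628090-102628758, 169 kb from the nearest annotated start, with A of 159, M of 51.4 and log2 M/A of -1.63. The smallest was at the narrowest of all sites, chr16:61056334-61056482, with A of 118, M of 96.8 and log2 M/A of -0.29.

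Many of these strong sites shared their sequence with each other. Of the 100 strongest sites 98 had reference sequence, and 23 of them matched another at 90% identity or more over at least 50% of the shorter site. They formed 6 families and included 9 of the 20 strongest. The largest family had 7 sites on 7 chromosomes and the second 6 sites on 6 chromosomes, none within 1 kb of a coding start. The aligned stretches of 2 members are shown for each of these 2 families, which held all 9 of those sites. The sites ranked 1 and 3 by A belonged to no family. Capitals mark bases that differ from, or are absent in, the aligned partner (GRCm38, 5′ to 3′, on the strand given).

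chr6:44792992-44793226, plus strand: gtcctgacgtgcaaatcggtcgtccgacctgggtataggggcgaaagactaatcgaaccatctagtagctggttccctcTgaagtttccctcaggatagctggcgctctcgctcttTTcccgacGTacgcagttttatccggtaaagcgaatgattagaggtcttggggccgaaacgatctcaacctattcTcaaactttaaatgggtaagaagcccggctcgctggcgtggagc
chr11:33754811-33755043, minus strand: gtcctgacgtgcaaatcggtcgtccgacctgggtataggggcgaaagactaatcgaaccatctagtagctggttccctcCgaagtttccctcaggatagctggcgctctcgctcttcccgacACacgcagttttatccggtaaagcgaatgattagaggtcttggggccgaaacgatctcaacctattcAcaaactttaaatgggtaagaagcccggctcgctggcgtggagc
chr14:56693996-56694184, plus strand: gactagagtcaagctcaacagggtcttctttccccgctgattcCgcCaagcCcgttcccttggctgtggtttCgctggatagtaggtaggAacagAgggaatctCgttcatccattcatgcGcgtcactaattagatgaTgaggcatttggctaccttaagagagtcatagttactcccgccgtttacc
chr1:46075943-46076131, plus strand: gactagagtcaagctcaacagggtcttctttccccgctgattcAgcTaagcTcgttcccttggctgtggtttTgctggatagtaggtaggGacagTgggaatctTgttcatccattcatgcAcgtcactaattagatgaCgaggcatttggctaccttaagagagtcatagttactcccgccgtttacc

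The first pair was 97.4% identical over 235 aligned columns and the second 95.2% identical over 189. Both stretches read as parts of the large-subunit ribosomal RNA gene, which is present in many copies. This identification is from general knowledge of that RNA, and a full-length ribosomal repeat was not used here to test it. Where reads match several copies equally well, a site's signal cannot be assigned to 1 place, and the methods name no filter on such reads.

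The families differed in how far they were lowered. The 7 sites of the first family had A of 26.5 to 258, M of 9.39 to 123 and log2 M/A of -1.50 to -0.81, and 5 of the 7 were at -1 or lower. The 6 sites of the second had A of 63.2 to 182, M of 29.04 to 128 and log2 M/A of -1.12 to -0.29, and 1 was at -1 or lower, the site 2.85 kb from the start of Tmem56. The fourth family was a pair, chrX:134149824-134150351 and chr9:96852592-96853200, matched over 290 columns at 90% identity. Their asynchronous signals were 39.3 and 38.7 and their mitotic signals 8.35 and 8.94, so log2 M/A was -2.23 and -2.11. The 77 other sites among the 100 strongest had a median of -0.72, against -0.86 for the 23 in families, and 18 of the 77 were at -1 or lower.

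Sites beside genes for U small nuclear RNAs were strong as a group, though not those at U6 genes, and were lowered less than most. These RNAs form the cores of the spliceosome (U1, U2, U4, U5 and U6), process histone mRNAs (U7) or, for U3, which the annotation used here lists with them, process ribosomal RNA. The group was chosen after the signals had been seen, so its differences are descriptions and no tests. RefSeq annotates 997 snRNA genes, and 41 HSF1 sites lay within 1 kb of at least 1 of them. Their asynchronous signal had a lowest value of 3.18, a median of 19.3 and a highest of 58.3, and 19 of the 41 were among the 100 strongest sites. Their mitotic signal ran from 2.67 through a median of 14.3 to 48.2. All 41 were lower in mitosis, yet none of them was at -1 or lower, where 17.7% of all sites were. Their median log2 M/A was -0.40 (95% interval -0.49 to -0.33), and 34 of 41 were above the median of all sites.

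The difference from the other 1685 sites was 0.23 on the log2 scale (95% interval 0.13 to 0.30). Many of the 41 snRNA sites lie close together in gene clusters, and the interval treats each site as independent. Among sites with A of 10 or more the difference was 0.33 (0.22 to 0.41). The 32 snRNA sites had a median of -0.40 and the 364 others -0.73. A is part of the ratio, and median A after this cut was 22.9 at the snRNA sites and 13.7 at the others. Width was not matched either. The snRNA sites were 1634 to 9296 bp wide, while the narrowest quartile of all sites ended at 1423 bp. At -1 or lower were 25.9% of that quartile and 10.2% of the widest quartile. Of the 41 sites 27 had no other copy in the reference at 95% identity over 80% of the site. With copied sites left out of both groups the difference was 0.22 (0.11 to 0.37). This search misses shorter copies within a wide site. The U2 sites chr11:101640606-101643219 and chr11:101643529-101648033 count among the 27, yet match each other over 1337 columns at 98.6% identity. The strongest were Alyref2 beside a U5 gene (A 58.3, M 48.2), a U2 site at chr11:101640606-101643219 (A 37.7, M 31.1) and a U1 site at chr12:54709664-54711486 (A 35.8, M 24.7). The least lowered was a U2 site at chr1:72242332-72245866, with A of 16.2 and M of 14.9. The most lowered was a U5 site at chr4:117188770-117190919, with A of 14.6 and M of 7.79. The 10 U2 sites had a median of -0.36, the 13 U1 sites -0.48, the 7 U5 sites -0.40 and the 4 U3 sites -0.43. The 6 U6 sites had a median of -0.32, and the ranges of these groups overlapped. A site with both U3 and U6 genes counts in each. Median A at the U6 sites was 5.99, against 6.21 for all sites. One of the 41 sites held a heat shock element, that at Parp16, and 19 overlapped an HSF2 site, against 15.9% and 51.2% of all sites. Beside transfer RNA genes, which like U6 are made by RNA polymerase III, 42 sites had a median of -0.55, and the interval of their difference from other sites, 0.08 (-0.04 to 0.16), included 0.

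**Figure D2:**
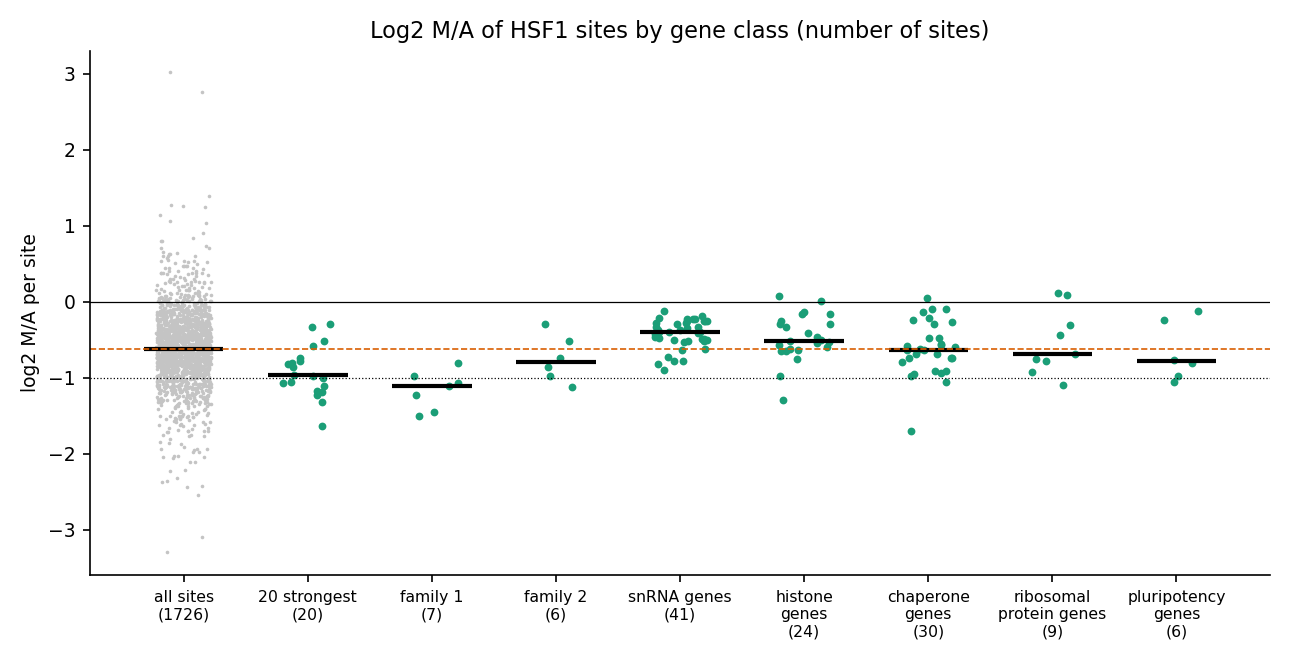
Log2 M/A of single sites (points) by group, with the median of each group (black bar), the median of all sites (dashed line), and lines at 0 (solid) and -1 (dotted). The 41 U snRNA sites lie between -0.90 and -0.13, while the 20 strongest sites are centred at -0.97.

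Chaperone genes ranged from weak to strong signal, with a median log2 M/A close to that of all sites. Of 108 genes in 4 lists (HSP70 and HSP110, HSP90 and its cochaperones, HSP40 and BAG proteins, chaperonins and prefoldin) 32 had a site within 1 kb of a start, at 30 sites. As a background for this and the later lists, single autosomes had 1.88 to 8.96 sites at coding starts per 100 coding genes. The 30 sites had a median A of 9.12 and a median M of 6.04, against 7.80 and 5.05 for all sites within 1 kb of a coding start. Their median log2 M/A was -0.63 against -0.62 for all sites. The difference was -0.01 (-0.12 to 0.14). Signal was lower in mitosis at 29 of the 30, and 2 were at -1 or lower. Of the 30 sites 14 held a heat shock element and 25 overlapped an HSF2 site. Among all sites within 1 kb of a coding start these shares were 12.6% and 68.1%.

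One 13-base element is shown in capitals, with 8 bases on each side, for 8 of these 14 sites and for Serpinh1 of the other heat shock genes, plus strand of GRCm38, because these are the letters HSF1 is known to bind.

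Hspd1 and Hspe1, chr1:55088051-55088079: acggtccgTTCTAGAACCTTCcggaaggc
Hspa8, chr9:40801055-40801083: gcgagcgtGAAAGTTCCAGAAcgccgcgg
Hsph1, chr5:149636280-149636308: actgaggaGAACTTTCCAGAAtctgcagc
Hsp90aa1, chr12:110696379-110696407: agcctccgGAACCTTCCGGAAgaaccctc
St13, chr15:81399803-81399831: tccgcctaGAACCTTCTAGAAgtgtagct
Stip1, chr19:7040271-7040299: cctgttctTTCTGGAAATTTCcacaactc
Chordc1, chr9:18292255-18292283: tgcaaccgGAACGTTCGGGAAaattcctg
Dnajb6, chr5:29735844-29735872: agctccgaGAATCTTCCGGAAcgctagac
Serpinh1, chr7:99353170-99353198: tgtcccaaGAAACTTCTGGAAagttggaa

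In Hspd1 and Hspe1, whose products form the mitochondrial chaperonin from a shared start region, a second element overlaps the one shown. At Chordc1 3 elements overlap, and Hspa8 has a second element elsewhere in its site. In the RefSeq promoter table (GRCm38.p6, 250 bases before to 50 after each start), 179 of 27025 genes (0.662%) held the 3-unit element, against 17 of 751 matched genes (2.26%) with an HSF1 site within 1 kb. Among chaperone genes the counts were 5 of 27 with a site and 0 of 63 without. A match is a run of letters in these windows and no measure of binding.

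The strongest chaperone site was that of St13, a cochaperone that links HSP70 and HSP90, with A of 53.8 and M of 36.7. Hspa8, the constitutive HSP70, had A of 34.8 and M of 18.5. Cct7, a subunit of the cytosolic chaperonin, shared a site with Pradc1, with A of 25.2 and M of 16.3. These 3 were among the 100 strongest of all sites, as were Hspd1 with Hspe1, Hsp90aa1 and Stip1, another HSP70 to HSP90 adaptor (A 21.2, M 13.6). Hspbp1, a nucleotide exchange factor for HSP70, had A of 19.5 and M of 9.86. Dnajc7, an HSP40 that binds both HSP70 and HSP90, had A of 18.95 and M of 9.09, a log2 M/A of -1.06.

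Values were spread within each class. Among HSP40 genes log2 M/A ran from -0.25 at Dnajb1 (A 11.7, M 9.89) to -1.70 at Dnaja4 (A 1.46, M 0.448), the weakest chaperone site of all. Among HSP70 genes it ran from -0.95 at the stress-inducible Hspa1b (A 6.28, M 3.25) to 0.05 at Hspa4l (A 4.56, M 4.73), the 1 chaperone site that was higher in mitosis. The neighbouring copy of Hspa1b, Hspa1a with Hspa1l, had A of 2.97 and M of 2.77, and near-identical sequence can share reads between the 2 copies. Among HSP90 and its partners Ptges3 (the p23 cochaperone, -0.94) and Chordc1 (-0.91) were lowest, and Fkbp4 (A 2.402, M 2.24) and Ahsa1 (A 4.58, M 4.18) were closest to equal signal. The chaperonin subunits Tcp1 (-0.22), Cct8 (-0.48), Cct4 (-0.74) and Cct3 (-0.79) were all lower in mitosis.

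**Figure D3:**
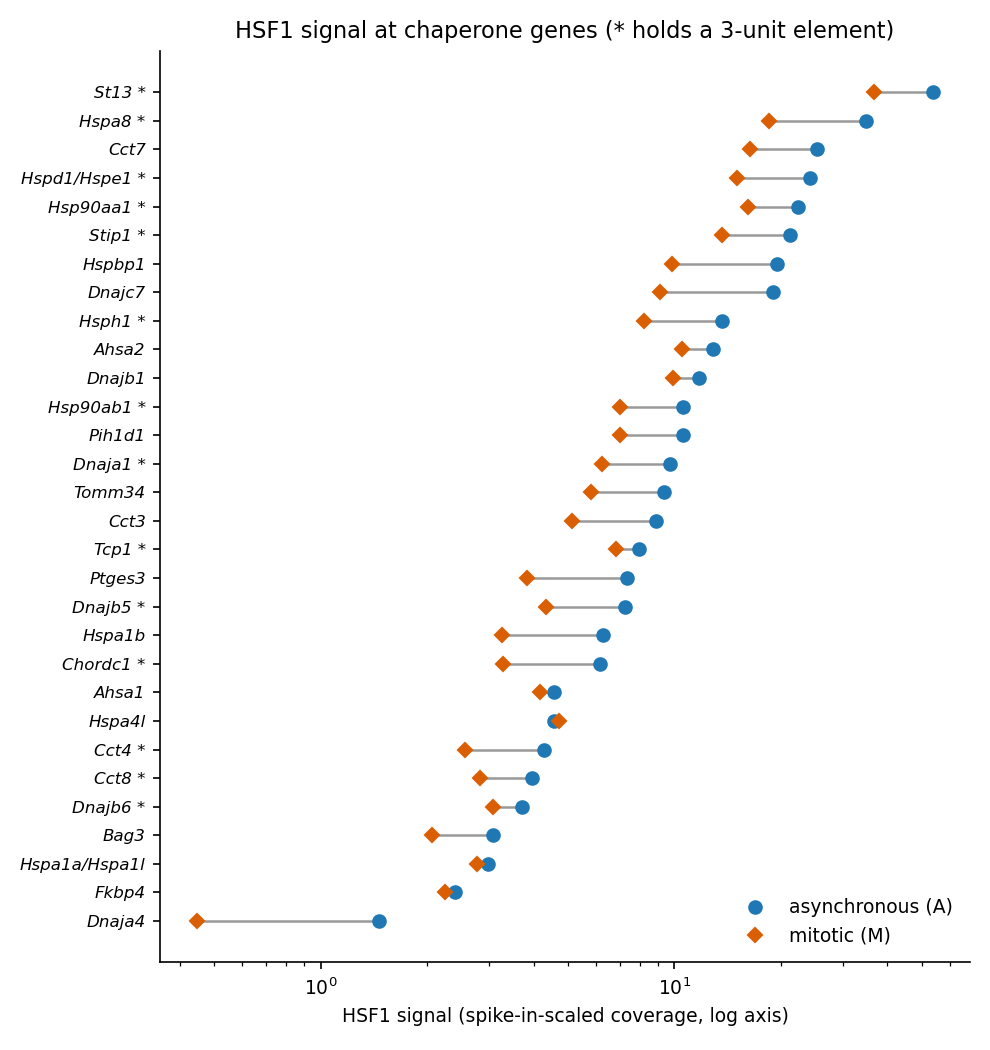
HSF1 signal in asynchronous (circles) and mitotic (diamonds) cells at the 30 sites within 1 kb of a chaperone gene, on a log axis in spike-in-scaled coverage, with asterisks for sites that hold a 3-unit element. The mitotic value lies to the left of the asynchronous one at every site except that of Hspa4l.

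Of 23 small HSP and other heat shock genes 4 had a site, all lower in mitosis and all overlapping an HSF2 site. Of all sites within 1 kb of a coding start 68.1% did so. Values differed among the 4 sites. Dedd2 was lowest (A 5.70, M 2.02, log2 M/A -1.50), and Serpinh1, the collagen chaperone HSP47, had A of 2.32 and M of 1.43. Hspb1, the small chaperone HSP27, had A of 4.02 and M of 3.06, and the mitochondrial protease Lonp1 had A of 10.2 and M of 7.60. Few other lists had many sites. Of 48 proteasome and ubiquitin genes 2 had one, Psmd3 and the polyubiquitin gene Ubb, both at the level of all sites (-0.62 and -0.59).

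Replication-dependent histone genes were the list with the largest share of genes near a site, counting a shared site for each of its genes. These genes are packed in clusters and are transcribed in S phase. Of 67 such genes 48 were within 1 kb of an HSF1 site, at 24 sites. Their median A was 8.90, median M 6.44 and median log2 M/A -0.51, and 17 of the 24 were above the median of all sites. Signal was higher in mitosis at 2 of them (8.11% of all sites), shared by Hist1h2an with Hist1h2bp (A 9.32, M 9.83) and by Hist1h2ak with Hist1h2bn (A 8.32, M 8.40). The strongest was shared by Hist1h2ao, Hist1h2bq and Hist1h4m, with A of 14.4 and M of 9.98. One was at -1 or lower, that of Hist1h3i (A 9.57, M 3.89, log2 M/A -1.30). These genes have near-identical copies, so the split of signal between neighbours is uncertain.

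Other lists held few sites, and no share over all coding genes was calculated to set their counts against. Of 83 cytosolic ribosomal protein genes 9 had one, with log2 M/A from -1.099 at Rpl30 (A 3.89, M 1.82) to 0.11 at Rpl38 (A 3.43, M 3.71). Rps27l was the strongest, with A of 13.4 and M of 8.31. Of 39 pluripotency genes 6 had a site, all lower in mitosis, with a median log2 M/A of -0.79. Klf2, a factor of the naive state, was lowest, with A of 9.50 and M of 4.58. Trim28, a corepressor that silences retroelements, had A of 9.33 and M of 4.74. Tbx3 had A of 5.00 and M of 2.93, whereas Gdf3 (A 3.57, M 3.27) and Mycn (A 5.78, M 4.90) were closer to equal. Of 40 cell cycle genes 3 had a site, among them Cdk1, the kinase that drives entry into mitosis, with A of 6.43 and M of 2.96, and the cyclin gene Ccnd3 with A of 3.58 and M of 3.79. Of 32 genes of RNA polymerase II and elongation 3 had one, Polr2a (A 8.26, M 5.47), Brd2 (A 8.33, M 6.15) and Hexim1 (A 5.58, M 3.32).

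Strong sites at coding starts varied. The 20 strongest within 1 kb of a start, picked out after values had been seen, were all lower in mitosis, and 5 were at -1 or lower. They include the sites of St13, Hspa8, Hspe1 and Cct7 given above. Of the others, Crebzf (A 50.2, M 28.5), Crlf2 (A 42.8, M 25.9) and Relb, an NF-kB subunit (A 28.97, M 16.1), had log2 M/A of -0.82, -0.72 and -0.85. Tfb2m, a mitochondrial transcription factor (A 30.0, M 13.8), and Zfpm1, a GATA factor cofactor (A 23.0, M 11.2), had M under 50% of A. Phf21a, a histone reader of the LSD1 complex, was the most lowered of all sites at or above the median strength, with A of 26.7, M of 4.59 and log2 M/A of -2.54. That site was 622 bp wide and lay 28 bp from the start. Of its bases 71.1% were soft-masked, that is, marked as repeats in the reference.

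Of the 12 lowest log2 M/A at or above the median strength, 9 lay more than 5 kb from a coding start. Of all sites 27.2% lay at 5 to 50 kb and 16.4% farther. Of the 12, 8 were narrower than 1 kb, and the narrowest quartile of all sites ran up to 1423 bp. Repeat-rich, with at least 50% soft-masked bases, were 6 of the 12, against 10.8% of all sites. The 9 included chr11:121981088-121982545 (A 46.0, M 9.22), chr9:115350671-115351171 (A 36.3, M 8.75) and chr7:26706159-26707046, 19.7 kb from Cyp2b23 (A 13.8, M 3.39). At coding starts the lowest after Phf21a were Pbx4, a homeodomain cofactor (A 11.2, M 3.64, log2 M/A -1.63), and Aagab (A 14.4, M 4.70, log2 M/A -1.61). The Pbx4 site held an element, whereas none of the other 11 did, and 15.9% of all sites held one. The 12 highest had A of at most 8.002, below the A of all 12 lowest, but A is part of the ratio they were chosen by. By the mean of A and M the groups overlapped. The first was 4.24 kb from the start of Nanog, a core pluripotency factor, with A of 5.72, M of 7.90 and log2 M/A of 0.47. Others lay at the starts of Sap30, a subunit of the Sin3 deacetylase complex (A 5.54, M 6.99), and Tmem41b (A 7.04, M 8.15). Tada3, a subunit of acetyltransferase complexes, had A of 8.002 and M of 9.06. Of these 12, 6 lay within 1 kb of a start and 5 overlapped an HSF2 site, against 48.1% and 51.2% of all sites.

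No site at or above the median strength reached log2 M/A of 1. All 9 sites that did were weak, with A of 0.0769 to 2.43. The bound of -1 also cut through a continuous range, with Rmi1 (A 8.598, M 4.29) just inside and Add3 (A 20.3, M 10.2) just outside. At the bound of 0, Adnp2 (A 8.86, M 8.80) was just below, and 2 unnamed sites with A of 2.49 and 3.02 and M of 2.49 and 3.03 were just above.

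Strength changed the spread of log2 M/A more than its centre. Across 10 equal groups by the mean of A and M, medians lay between -0.69 and -0.53. The interquartile range was 1.09 in the weakest group and 0.44 in the strongest. In the weakest group 26.6% of sites were higher in mitosis and 27.7% were at -1 or lower, and in the strongest these shares were 1.16% and 19.1%. The share at -1 or lower was smallest in between, at 8.67% in the eighth group. The strongest quartile minus the weakest gave -0.05 (-0.17 to 0.06). The sign of this difference followed the measure of strength. It was -0.28 when sites were ranked by A and 0.22 when they were ranked by M, each of which is part of the ratio itself.

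**Figure D4:**
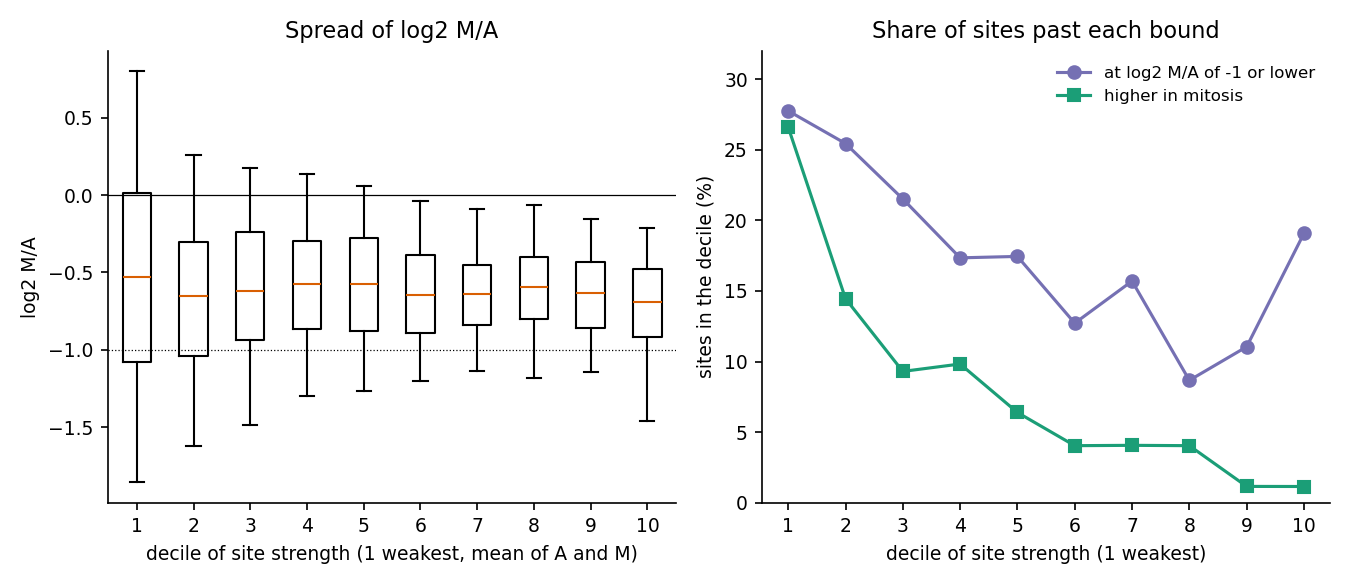
Left, log2 M/A in 10 equal groups of sites by strength, with boxes for quartiles, whiskers for the 5th and 95th percentiles and lines at 0 and -1. Right, the percentage of sites in each group at -1 or lower and above 0, which start at 27.7% and 26.6% in the weakest group and end at 19.1% and 1.16% in the strongest, the first of them after a low of 8.67% in the eighth group.

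Width showed a small difference. The widest quartile of sites (2611 to 19117 bp) had a median log2 M/A of -0.57 and the narrowest (149 to 1423 bp) -0.68, a difference of 0.11 (0.03 to 0.18). Among sites with under 50% soft-masked bases it was 0.07 (-0.03 to 0.14). At -1 or lower were 25.9% of the narrowest and 10.2% of the widest, and 12.5% and 3.70% were higher in mitosis. The widest single site, at Gm45844, spanned 19.1 kb with A of 6.97 and M of 5.47. Hsp90ab1 and Hsp90aa1, the genes of the 2 cytosolic HSP90 proteins, were among the 12 widest at 10.7 and 10.3 kb, with A of 10.6 and 22.4 and M of 7.02 and 16.1. One of the 12 was higher in mitosis, at chr6:47738192-47755394, with A of 6.28 and M of 7.51. It has 3 other copies in the reference.

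Sites at coding starts had a median close to that of other sites and smaller shares both at -1 or lower and above 0. Of all sites 831 lay within 1 kb of a start, beside 993 genes. Their median A was 7.80 against 4.62 elsewhere, and the difference in median log2 M/A was -0.01 (-0.06 to 0.04), or -0.05 (-0.09 to -0.01) with a pseudocount of 1. At -1 or lower were 11.9% of them and 23.0% of the others, and 5.05% and 10.9% were higher in mitosis. The interquartile range was 0.48 at starts and 0.65 elsewhere. Sites with a heat shock element were weaker (median A 3.98 against 6.67), and their median log2 M/A differed by 0.03 (-0.05 to 0.08). With elements of 2 units the difference was 0.06 (0.01 to 0.10). Overlap with an HSF2 site gave -0.02 (-0.07 to 0.03), or -0.05 (-0.09 to -0.01) with a pseudocount of 1, and overlap with a SOX2 site gave 0.06 (0.01 to 0.11). The interval for SOX2 included 0 without the strongest 1% of sites, without copied sites, or with SOX2 sites within 1 kb counted. Of the 112 sites at coding starts that overlapped both, 5 (4.46%) were at -1 or lower and 3 (2.68%) were higher in mitosis. Repeat-rich sites, with at least 50% soft-masked bases, gave -0.11 (-0.19 to 0.04) against the rest.

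HSF1 sites were unevenly spread over chromosomes. Chromosome 11 had 243 sites (1.99 per Mb) and chromosome 8 had 188 (1.45 per Mb), together 25.0% of sites on 9.23% of the length of chromosomes 1 to 19, X and Y. The other autosomes apart from chromosome 6 had 0.344 to 0.853 per Mb, and chromosome X had 0.134. Counted against genes, 8.96 sites at coding starts per 100 coding genes were found on chromosome 8 and 8.002 on chromosome 11, against 1.88 to 4.61 on those autosomes. The HSF2 sites were also densest on chromosomes 11 (2.65 per Mb) and 8 (1.72 per Mb). At SOX2 sites, which were taken from the literature rather than called here, the median asynchronous SOX2 signal was 14.6 on chromosome 11 and 10.0 on chromosome 8, against 7.52 to 9.53 on those autosomes. Chromosome copy number was not tested. These 2 densest chromosomes did not stand out in log2 M/A, with medians of -0.58 on chromosome 11 and -0.64 on chromosome 8. Chromosome 6, next in density at 0.875 sites per Mb, had a median of -0.45. No relation between density and log2 M/A was calculated across chromosomes.

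Medians by chromosome, over the 20 chromosomes with at least 20 sites, ran from -0.82 on chromosome 15 (95% interval -0.89 to -0.71) to -0.45 on chromosome 6 (-0.65 to -0.32). On chromosome 6, 18.3% of sites were higher in mitosis, and its median A was 3.66, against 5.09 to 8.20 on the other autosomes apart from 8 and 11. Its sites were concentrated towards 1 end, with 80 of 131 in the last 29.7 Mb, or 2.69 per Mb against 0.425 before 120 Mb. The Nanog, Gdf3 and Hist4h4 sites lie in that stretch. Chromosome X (23 sites) differed from the autosomes by -0.10 (-0.31 to 0.08). Its strongest site was the repeated one with A of 39.3 and M of 8.35. The strongest site of a chromosome was at a coding start only on chromosomes 4 (Slc35e2, A 26.9, M 16.8), 5 (Crlf2) and 8 (Mast3, A 28.0, M 15.0).

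**Figure D5:**
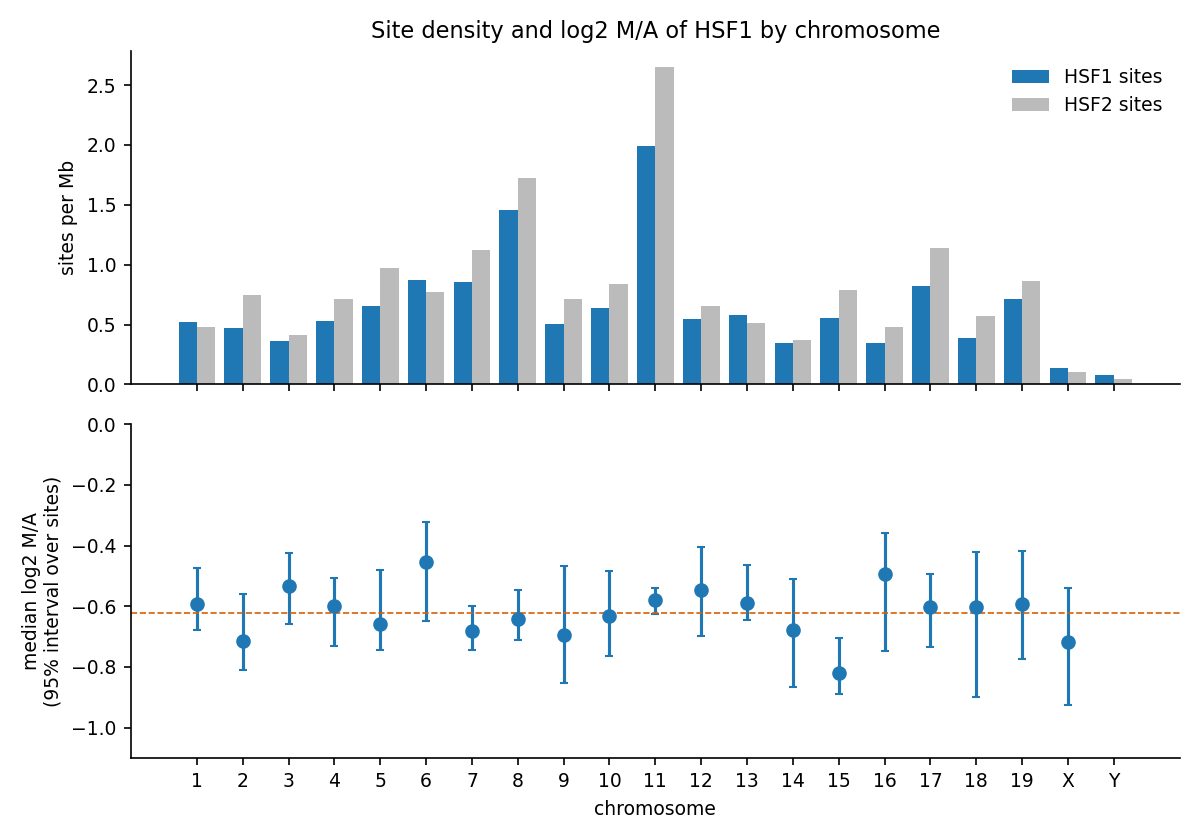
Top, HSF1 and HSF2 sites per Mb of each chromosome. Bottom, median log2 M/A of HSF1 sites with its 95% interval over sites for chromosomes with at least 20 sites, and the median of all sites as a dashed line. Chromosomes 11 and 8 stand out in density (1.99 and 1.45 HSF1 sites per Mb) and not in log2 M/A.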

How the data were processed

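The authors aligned CUT&Tag reads to mm10 with Bowtie2, kept PCR duplicates, scaled coverage by reads from the Drosophila spike-in, called sites with SEACR, using IgG as control, and pooled the sites of both phases. According to the methods no further filter was applied. The deposited score table holds the mean scaled coverage signal of each site, averaged over the 2 libraries of a phase. By the methods, scaling factors were set relative to the asynchronous sample. The signal carries no read totals, and the entries for the HSF1 libraries in the study's list of read totals could not be read in the copy used, so the depth behind each value is unknown here. No count model was used, and intervals cover neither replicate nor counting error.

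Log2 M/A was calculated from this deposited signal with no pseudocount. Intervals are 95% order-statistic intervals for medians, combined for differences of medians, and Wilson intervals for shares. The calculations were tested on simulated data. The reference was GRCm38 (the build of mm10) with GENCODE M21 transcript starts and RefSeq snRNA, tRNA and promoter records, and 7 sites on other contigs had no sequence here. Copies were searched with minimap2 2.31 (95% identity over 80% of a site) and shared sequence with blastn 2.17.0. The software was matplotlib 3.10.9, scipy 1.17.1, pandas 2.3.3 and numpy 2.4.6 under Python 3.11.15.

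Sites were named by the coding gene with a start within 5 kb. The rule names the 20 strongest sites per phase, the 12 highest and 12 lowest log2 M/A at or above the median strength, sites within 1 kb of listed genes (up to 6 for lists outside the heat shock genes), the strongest site per chromosome, the 12 widest sites and those next to the bounds. Only some of these sites are given with their values, and the rest are covered by counts and ranges or not reported here. Sites and gene lists were chosen with earlier results of these data known, and the snRNA, tRNA and sequence-family groups were added after values had been seen. The HSF2 and SOX2 tables were used for positions and, by chromosome, for density and level. The alternatives were pseudocounts of 0.1 and 1, strength filters, merged neighbours, leaving out the strongest 1%, repeats or contigs, centring, and other definitions of strength, start, element and overlap.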

Additional observations from a re-analysis of the deposited data

How the results depend on the processing

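No paired analysis was possible because each phase is given as 1 averaged column, and for the same reason no library could be left out. Of 134 alternatives over the 12 results, 123 stayed within the interval of the reported value, 11 moved outside it and none turned a direction whose interval excluded 0. The median log2 M/A of -0.62 became -0.51 with a pseudocount of 1, -0.68 as the log2 ratio of means and -0.028 when centred on the weakest quartile of sites. With that centring 52.3% of sites were lower in mitosis and 2.78% were at -1 or lower. Keeping the stronger 50% of sites gave 97.1% and 13.4%, and a pseudocount of 1 gave 7.13% at -1 or lower. The strongest quartile minus the weakest was -0.23 with a pseudocount of 1, -0.28 by A and 0.22 by M. The centring sets the overall level, so differences between groups of sites do not depend on it. Leaving out chromosomes 6, 8 and 11, or sites with another copy, was chosen after seeing the data and moved none of the 12 values outside its reported interval. Some alternatives nevertheless changed whether an interval included 0. It came to exclude 0 for coding starts (-0.05) and HSF2 overlap (-0.05) with a pseudocount of 1, and for elements of 2 units (0.06) and chromosome X without repeat-rich sites (-0.11). It came to include 0 for width without repeat-rich sites (0.07) and for SOX2 overlap without the strongest 1% (0.05), without copied sites (0.05) or counted within 1 kb (0.05). The filter on repeats gave no value for repeat-rich sites, and that on strength left too few sites on chromosome X. The spike-in scale sets the level of all ratios and could not be checked here.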
